A study of Homo sapiens with 8 samples.

Results

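The liver-enriched transcription factors examined here were HNF4A, FOXA1, FOXA2, FOXA3, CEBPA, ONECUT1, PROX1 and NR5A2, a list of 8 genes chosen by symbol. Of these, 7 were measured, by 13 probe sets, among 18132 genes that had a probe set with a single gene symbol in the platform annotation. HNF4A was not analysed here. Gene expression had been profiled on 1 Affymetrix array per sample in Hep3B and Huh7.5.1 cells, both established human hepatocellular carcinoma lines, and Huh7.5.1 is a derivative of the Huh7 line. The groups used were Hep3B kept for 48 h with the solvent DMSO, Huh7.5.1 kept for 48 h with DMSO, and Huh7.5.1 kept for 48 h with 10 μM CU27, with 2 arrays each. CU27 is a code name, and nothing more of the compound is given here. The labels name no genetic change in the cells, and each line comes from a single tumour. The labels name a pair of culture media without saying which line was kept in which, so medium and line cannot be told apart. They call the replicates biological without saying whether they came from separate cultures, so the p-values measure the spread between these arrays, which may be technical.

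The deposited columns for CU27-treated Hep3B cells were left out. At all 49395 probe sets they were linear functions of the Hep3B DMSO columns, within 1e-06, and so added nothing to those columns. The relation can be turned round, so the values do not show which of the pairs was measured. Every comparison with Hep3B below takes the DMSO columns as measured. Pearson correlations over probe sets were 0.994, 0.993 and 0.991 within the 3 groups used. The Hep3B DMSO arrays held equal values at 1086 probe sets, 0 of them probe sets of the members. Whether these arrays are independent replicates was not tested. RNA integrity can be read from ACTB, whose 3′ control exceeded its 5′ control by 2.28 and 1.60 in log2 on the Hep3B arrays and by 0.94 to 1.21 on the Huh7.5.1 arrays. Its part in the differences between lines was not tested. The floor, log2 6.11, was the median of all values on the 6 arrays used, without control probe sets. Of 10 hepatocyte markers, including ALB and APOA1, 10 reached the floor in each group. Some markers of other cell types were also present. In Hep3B, DMSO-treated Huh7.5.1 and CU27-treated Huh7.5.1 cells in that order, the floor was reached by 3, 2 and 2 of 5 biliary markers, 1, 4 and 4 of 7 intestinal, 2, 1 and 1 of 7 mesenchymal, 0, 1 and 0 of 5 endothelial, and 2, 1 and 1 of 5 leukocyte markers. PECAM1, VWF, CDH5 and TEK of endothelium, COL1A1, COL1A2, COL3A1, DCN and ACTA2 of mesenchymal cells, and PTPRC, CD3E and CSF1R of leukocytes lay below the floor in all 3 groups. All values below are log2 signals. In such bulk samples, fewer cells of a kind and less RNA per cell cannot be told apart.

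Hepatocyte identity rests on a small circuit of transcription factors that bind each other's genes and the genes of secreted and metabolic liver proteins. The FOXA proteins are pioneer factors that open chromatin in the early liver bud, C/EBP alpha, the product of CEBPA, drives mature metabolic genes and restrains proliferation, and HNF4A and ONECUT1 support hepatocyte and bile duct differentiation. NR5A2 is a nuclear receptor for phospholipids that controls bile acid and cholesterol genes, and PROX1 is a homeobox factor needed for hepatoblast migration that also acts as a corepressor of nuclear receptors.

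Sequence upstream of the gene start is shown for CEBPA, FOXA1 and NR5A2. These were the 3 members whose mean levels went down from Hep3B DMSO through Huh7.5.1 DMSO to Huh7.5.1 CU27. The sequence covers the 250 bases before each RefSeq start, on the strand of the gene, from the RefSeq promoter table of build GRCh38.p14. The stretches are chr19:33302535-33302784 on the minus strand for CEBPA, chr14:37595250-37595499 on the minus strand for FOXA1, and chr1:200027460-200027709 and chr1:200042341-200042590 on the plus strand for the 2 starts of NR5A2. Capitals mark any match, on either strand, to the motifs named after the sequences.
CEBPA: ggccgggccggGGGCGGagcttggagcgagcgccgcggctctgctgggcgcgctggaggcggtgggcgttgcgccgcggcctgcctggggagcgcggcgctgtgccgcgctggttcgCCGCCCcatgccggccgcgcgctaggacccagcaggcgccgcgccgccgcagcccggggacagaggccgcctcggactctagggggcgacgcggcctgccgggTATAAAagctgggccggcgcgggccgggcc
FOXA1: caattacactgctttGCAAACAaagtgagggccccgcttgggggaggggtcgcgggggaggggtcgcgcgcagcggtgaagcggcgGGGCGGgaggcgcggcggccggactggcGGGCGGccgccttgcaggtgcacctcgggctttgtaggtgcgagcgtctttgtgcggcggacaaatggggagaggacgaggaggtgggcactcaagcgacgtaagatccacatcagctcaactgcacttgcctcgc
NR5A2 upstream start: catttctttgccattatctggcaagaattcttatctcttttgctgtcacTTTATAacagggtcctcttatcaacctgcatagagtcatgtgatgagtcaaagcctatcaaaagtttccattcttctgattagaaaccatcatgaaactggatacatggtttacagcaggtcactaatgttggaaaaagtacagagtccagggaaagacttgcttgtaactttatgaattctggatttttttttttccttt
NR5A2 downstream start: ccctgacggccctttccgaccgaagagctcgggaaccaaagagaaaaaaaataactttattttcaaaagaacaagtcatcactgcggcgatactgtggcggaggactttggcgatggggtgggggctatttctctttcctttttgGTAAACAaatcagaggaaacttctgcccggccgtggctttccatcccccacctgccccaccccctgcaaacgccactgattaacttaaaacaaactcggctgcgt

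The motifs searched on both strands were TTGCNNAA for C/EBP, TGTTTAC and its variant TGTTTGC for FOXA, CAAAGTCCA for HNF4, ATCGAT for ONECUT, CAAGGTCA for NR5A2, GGGCGG for the GC box and TATAAA for the TATA box. The matches shown do not overlap each other. Among 35116 stretches of the same length in the table, they occurred in 9.05%, 2.98%, 3.23%, 0.325%, 0.655%, 1.14%, 42.6% and 10.7% respectively. FOXA1 held the FOXA variant 235 to 229 bases before its start and the GC box at 2 places. NR5A2 held the FOXA motif 105 to 99 bases before its downstream start, and a TATA box in reverse 201 to 196 bases before the upstream start. CEBPA held a TATA box 30 to 25 bases before its start and the GC box at 2 places. ONECUT1 and FOXA3 also had entries, and FOXA2 and PROX1 had none. The GC content of the CEBPA stretch was 81.2%, against 36% and 50.8% for the 2 NR5A2 stretches. Such a match is a description of letters and not evidence of binding.

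CU27 lowered CEBPA and FOXA1 in Huh7.5.1 cells. CEBPA fell 2.31-fold and FOXA1 fell 1.55-fold, while FOXA2, FOXA3, ONECUT1, NR5A2 and PROX1 did not pass the test. Of the 7 measured members, 2 fell and 0 rose (limma, adjusted p threshold 0.05 over 11383 tested genes). In the same comparison 24.7% of all tested genes passed, 12.1% downward and 12.6% upward. A share of 2 in 7 is near that background, so the count by itself is not a result about these factors. That background itself rested on single arrays, since the 2809 genes became 1639, 900 and 1517 when DMSO replicate 1, DMSO replicate 2 or CU27 replicate 2 was left out. The groups did not overlap for 5 of 7 members, 4 lower and 1 higher, and for 63.8% of tested genes. The median difference of the members was -0.32, against 0.02 over all tested genes.

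CEBPA had the largest change of the 7. Its signals were 11.49 and 11.54 in DMSO and 10.43 and 10.19 in CU27. Every treated array therefore lay more than a log2 unit below every control array, and the groups did not overlap. The difference was -1.21 ± 0.11 (SE, 2 arrays in each group; limma adjusted p = 0.000394). A change of at least this size was seen in 3.3% of tested genes, and CEBPA ranked 35 by p-value. The call held in all 14 alternatives that measured the gene, with differences from -1.32 to -1.09. CEBPA was read by 1 probe set, of the _s_at kind, which can match several transcripts.

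Among the FOXA genes, which encode the winged-helix pioneer factors, FOXA1 went down and the others did not pass. FOXA1 read 10.01 and 10.30 in DMSO and 9.56 and 9.49 in CU27, with no overlap. The difference was -0.63 ± 0.13 (limma adjusted p = 0.00998). Without DMSO replicate 2, the higher control, it was -0.49 (adjusted p = 0.0918, range 0.00621 to 0.0918 over alternatives). The other FOXA1 probe set, 11748971_a_at, read 7.58 and 7.55 in DMSO and 7.03 and 7.13 in CU27. In a fit over all 25602 probe sets that reached the floor, it too fell, by 0.49 (limma adjusted p = 0.0483), but this call was lost in 7 of 8 alternatives. In the same fit, the call of the brighter FOXA1 probe set, 11723333_at, was lost in 2 of 8 alternatives. These left out DMSO replicate 2 or CU27 replicate 2.

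FOXA2 read 8.57 and 8.69 in DMSO and 8.47 and 8.97 in CU27, so that the treated arrays enclosed the control arrays. The difference was 0.09, with a 95% interval from -0.32 to 0.50. FOXA3 read 7.69 and 8.03 in DMSO and 8.29 and 8.09 in CU27. Both treated arrays were above both controls, although the lower treated array lay just above the higher control. The FOXA3 difference was 0.33, with a 95% interval from -0.06 to 0.73 (limma adjusted p = 0.202). Whether the 3 FOXA genes differed from each other in their change was not tested.

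ONECUT1, the founding member of the onecut family, was the noisiest of the factors. It read 6.95 and 5.58 in DMSO and 6.64 and 6.03 in CU27. The lower array of each group lay below the floor, and the groups overlapped fully. The difference was 0.07, with a 95% interval from -0.81 to 0.95, which leaves changes near 2-fold in either direction undetected.

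NR5A2, also called LRH-1, tended lower without passing the test. Its brightest probe set, 11727749_a_at, read 8.51 and 8.55 in DMSO and 8.28 and 8.13 in CU27. The groups did not overlap, and the difference was -0.32 ± 0.14 (limma adjusted p = 0.122, 95% interval -0.64 to -0.01). In the fit over probe sets, 11738122_a_at had a difference of -0.46 (limma adjusted p = 0.0512), 11727751_a_at had -0.53 (adjusted p = 0.0642) and 11727750_a_at had -0.12 (adjusted p = 0.71). All 4 probe sets thus had negative values here, and 0 of the 4 passed. Without the intensity trend, 11738122_a_at passed (limma adjusted p = 0.048). Over the alternatives 11727751_a_at ran from -0.72 to -0.35, and 11727750_a_at ran from -0.36 to 0.12.

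PROX1 was read by 3 probe sets that differed in how well the replicates matched. The brightest, 11759071_at, read 11.05 and 10.90 in DMSO and 10.81 and 10.30 in CU27, with a difference of -0.42 ± 0.17 (limma adjusted p = 0.104, 95% interval -0.81 to -0.03). The treated arrays lay below both controls. Without CU27 replicate 1 the difference was -0.68 (adjusted p = 0.0142, range 0.0142 to 0.479 over alternatives). On 11731739_a_at the DMSO arrays read 10.36 and 9.55 and the CU27 arrays 10.06 and 9.32, and on 11748417_a_at they read 9.69 and 8.91 and 9.45 and 8.96. On these 2 probe sets the gap between replicates of a treatment, 0.49 to 0.80, was larger than the difference between treatments, -0.27 and -0.10. Replicate 1 was the higher array in each pair. Over the members, 3 of 13 probe sets passed, all lower, against 21.7% of all tested probe sets, 11.3% lower and 10.5% higher.

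**Figure D1:**
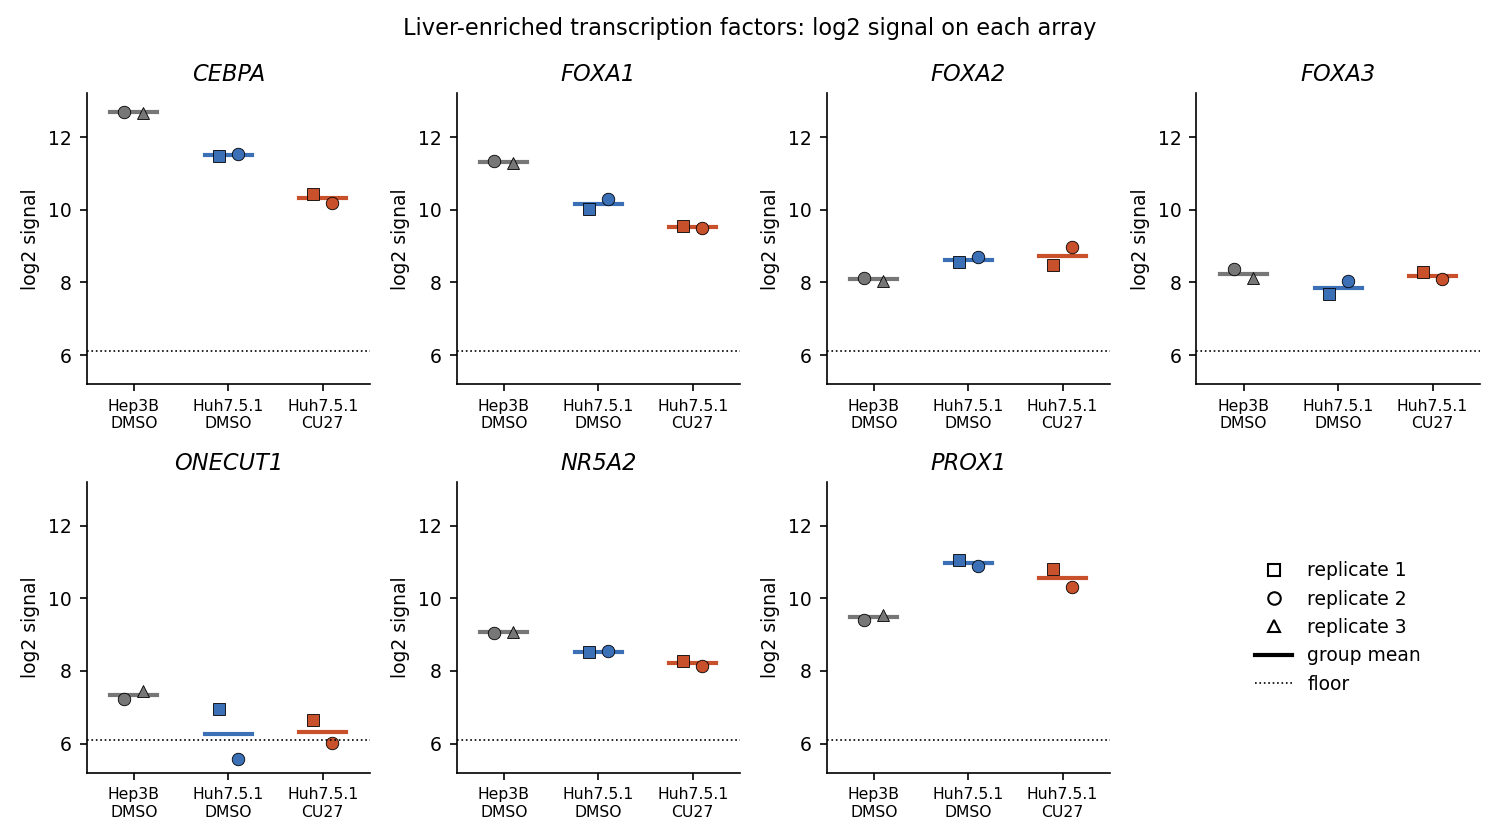
Log2 signal of the brightest probe set of each measured factor on each of the 6 arrays, with group means as bars and the floor of 6.11 as a dotted line. CEBPA and FOXA1 step down from Hep3B to Huh7.5.1 and again with CU27, PROX1 is higher in Huh7.5.1, and the ONECUT1 replicates lie far apart.

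**Figure D2:**
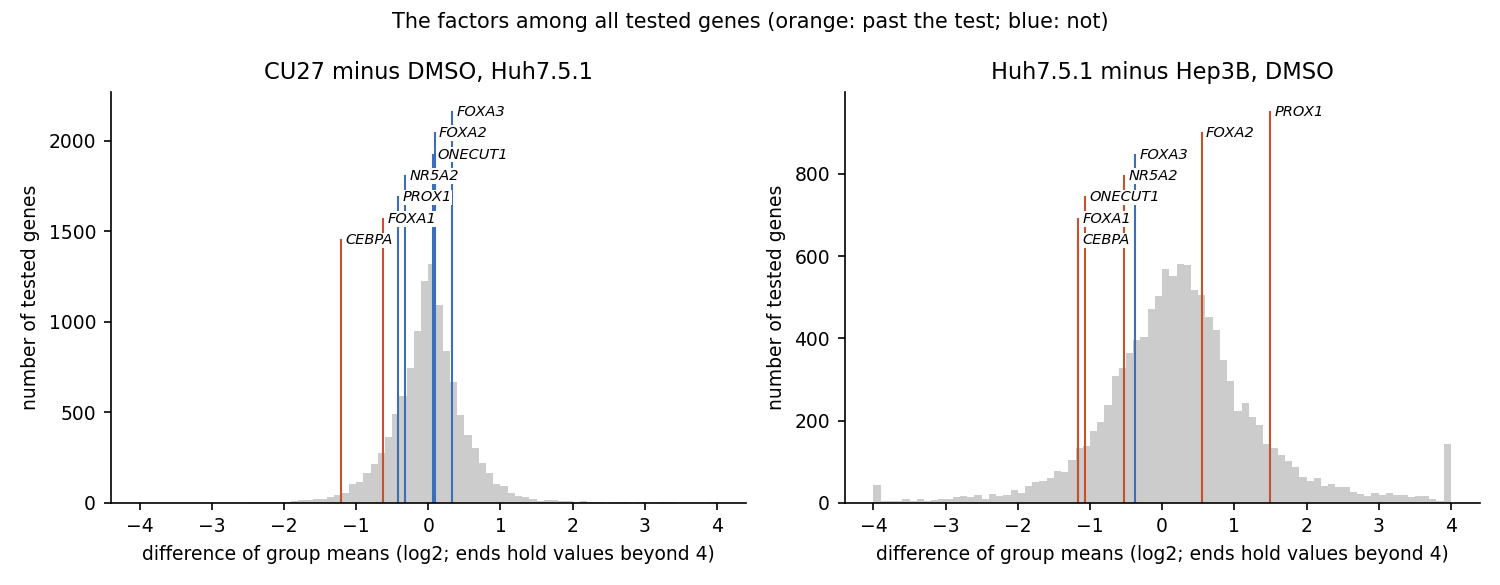
Number of tested genes (vertical axis) by difference of group means in log2 (horizontal axis), in grey, with the 7 factors as vertical lines, orange where limma adjusted p was under 0.05 and blue elsewhere. The height of a line has no meaning. CEBPA lies in the lower tail for CU27, and the distribution between lines is centred at 0.22 and not at 0.

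The lines differed in most of the factors. In DMSO, CEBPA, FOXA1, ONECUT1 and NR5A2 were lower in Huh7.5.1 than in Hep3B, PROX1 and FOXA2 were higher, and FOXA3 did not pass. Thus 6 of 7 members passed, 4 lower and 2 higher, where 64% of all tested genes passed, 22.9% lower and 41% higher. Most of the array therefore differs between lines, and 6 of 7 is not far from it. The values did not overlap between lines for 7 of 7 members and for 84.8% of tested genes. The median over all tested genes was itself 0.22 higher in Huh7.5.1, and -0.22 when each array was centred on its median. For CEBPA, FOXA1, FOXA2, NR5A2 and PROX1 the difference is therefore also given relative to the 0.22. Other differences between lines do not have that shift removed. The percentage of calls that were higher was 64.1% as deposited, 36.2% after centring and 43.8% after quantile normalization. The median difference of the members was -0.53.

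CEBPA and FOXA1 were each more than 2-fold lower in Huh7.5.1. CEBPA read 12.70 and 12.68 in Hep3B against 11.49 and 11.54 in Huh7.5.1. Its difference was -1.17 ± 0.11 (limma adjusted p = 1.97e-05), or -1.39 relative to the shift. FOXA1 read 11.34 and 11.29 in Hep3B against 10.01 and 10.30, a difference of -1.16 ± 0.13 (limma adjusted p = 7.3e-05), or -1.38 relative to the shift. The calls of both genes held in every alternative run that measured them, 13 for CEBPA and 14 for FOXA1. The other FOXA1 probe set showed a smaller difference, -0.42 (limma adjusted p = 0.033), which did not pass without any 1 of the 4 DMSO arrays (adjusted p = 0.069 to 0.127).

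FOXA2 and FOXA3 depended on the scaling between the lines. FOXA2 read 8.12 and 8.05 in Hep3B against 8.57 and 8.69, a difference of 0.55 ± 0.18 (limma adjusted p = 0.0263), or 0.32 relative to the shift. With each array centred on its median the FOXA2 difference was 0.13 (adjusted p = 0.562), and after quantile normalization it was 0.25 (adjusted p = 0.252). It also did not pass without any 1 of the 4 DMSO arrays, with adjusted p from 0.0658 to 0.123. FOXA3 read 8.36 and 8.11 in Hep3B against 7.69 and 8.03, a difference of -0.38 ± 0.17 (adjusted p = 0.0878). After centring the FOXA3 difference was -0.79 (limma adjusted p = 0.00318). Whether FOXA2 differs from FOXA1 in its difference between lines was not tested, although the values have opposite signs on each of the scalings run.

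ONECUT1 read 7.22 and 7.44 in Hep3B against 6.95 and 5.58 in Huh7.5.1, where a single array made most of the gap. The difference was -1.06 ± 0.39 (limma adjusted p = 0.038). Without Huh7.5.1 DMSO replicate 2 it was -0.38 (adjusted p = 0.29), and the call was also lost without Hep3B replicate 2 (adjusted p = 0.104) or Hep3B replicate 3 (adjusted p = 0.172). NR5A2 read 9.03 and 9.09 in Hep3B against 8.51 and 8.55, a difference of -0.53 ± 0.14 (limma adjusted p = 0.00864), or -0.75 relative to the shift. Without Huh7.5.1 DMSO replicate 1 its adjusted p was 0.0512 (range 0.000288 to 0.0512). Of the 4 NR5A2 probe sets, 3 were lower in Huh7.5.1, at -0.53, -0.53 and -0.57, and 11727751_a_at had -0.11 (limma adjusted p = 0.614). Of those 3, each lost its call when Huh7.5.1 DMSO replicate 1 was left out (adjusted p up to 0.144 over all alternatives).

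PROX1 was the factor most clearly higher in Huh7.5.1. It read 9.41 and 9.55 in Hep3B against 11.05 and 10.90, a 2.82-fold difference of 1.5 ± 0.17 in log2 (limma adjusted p = 7.81e-05), or 1.27 relative to the shift. All 3 PROX1 probe sets were higher, at 1.07, 1.31 and 1.5, and the call of the gene held in all 14 alternatives. The call of 11731739_a_at was lost in 4 of 8 alternatives, with each array centred on its median (adjusted p = 0.0686) and without Hep3B replicate 2, Hep3B replicate 3 or Huh7.5.1 DMSO replicate 1 (adjusted p = 0.0831, 0.0508 and 0.0835). Over the members, 11 of 13 probe sets passed between lines, against 64.1% of tested probe sets, 44.7% higher and 19.4% lower.

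**Figure D3:**
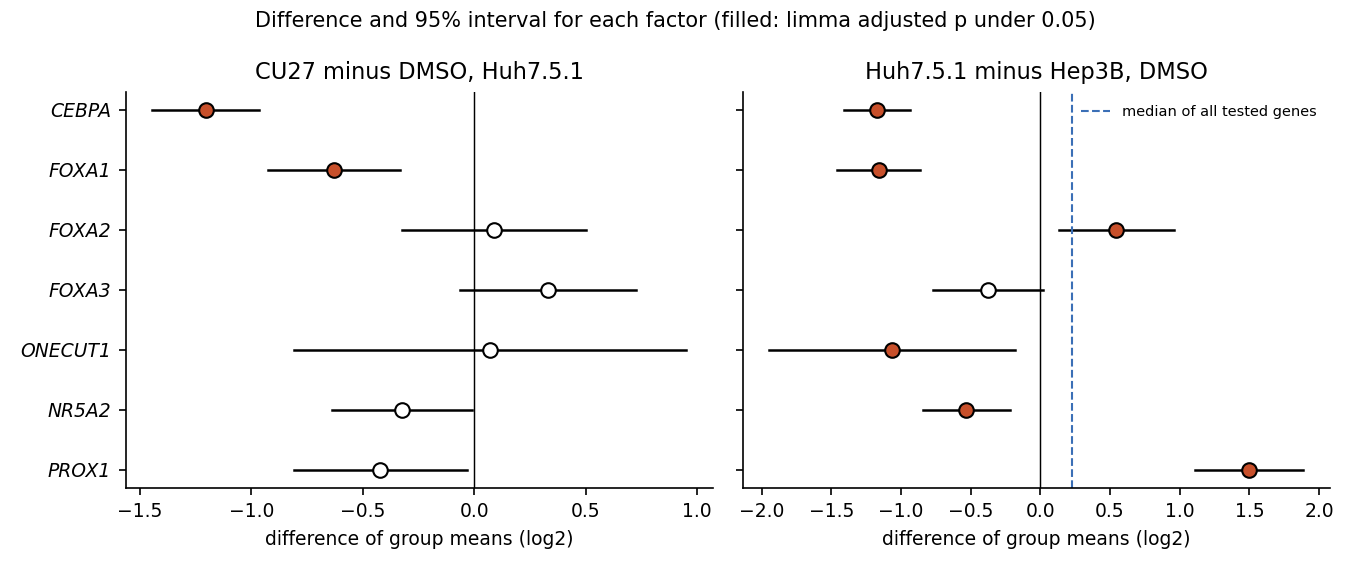
Difference of group means in log2 for each factor (points) with its 95% interval (lines), for CU27 against DMSO in Huh7.5.1 on the left and for Huh7.5.1 against Hep3B in DMSO on the right. Filled points passed limma at adjusted p under 0.05, 2 on the left and 6 on the right, and the dashed line marks the median of all tested genes, 0.22.

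**Figure D4:**
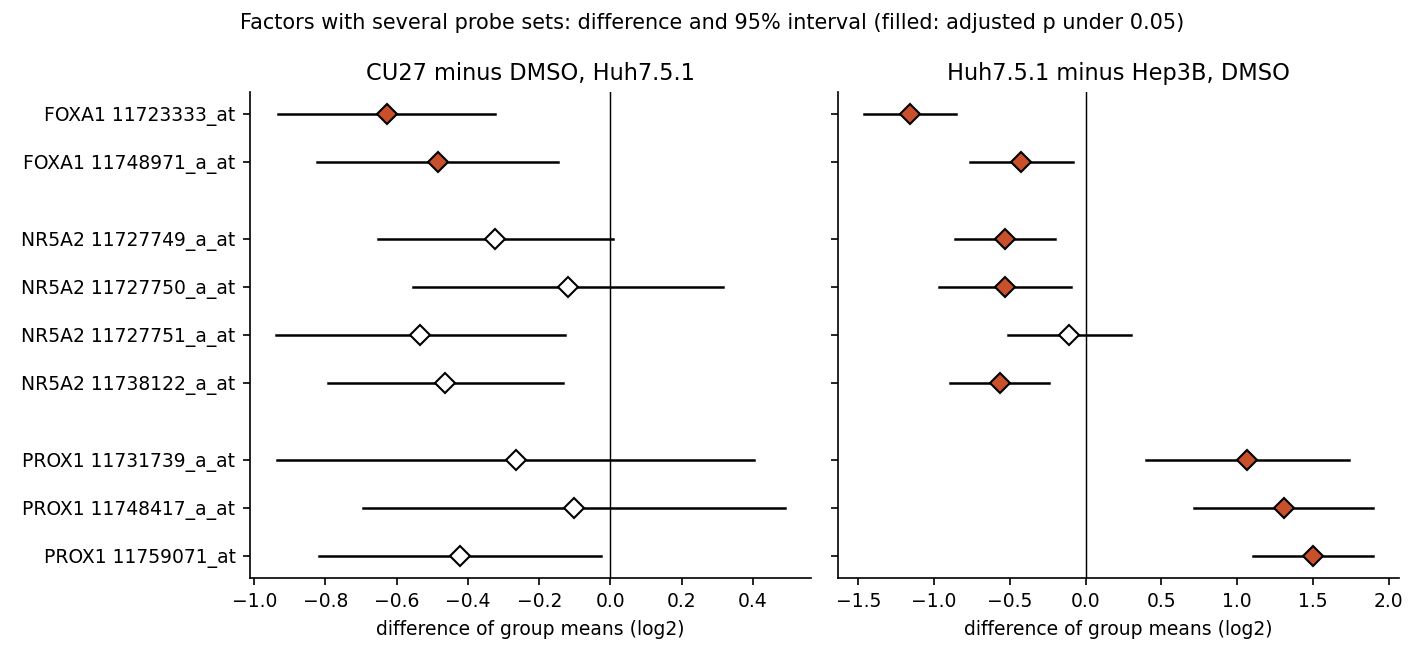
Difference of group means in log2 (diamonds) with 95% intervals (lines) for each probe set of the 3 factors read by several, FOXA1, NR5A2 and PROX1, in both comparisons. Filled diamonds passed at adjusted p under 0.05, and the 3 PROX1 probe sets are all higher in Huh7.5.1 than in Hep3B.

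Across the 3 groups, the levels of CEBPA, FOXA1 and NR5A2 ran in the order Hep3B DMSO, Huh7.5.1 DMSO, Huh7.5.1 CU27, from high to low. Neighbours in that order differed past the test for CEBPA and FOXA1, and for NR5A2 the last pair did not. The share of all tested genes with that order is not given here, so the order is a description of these genes. PROX1 ran from Huh7.5.1 DMSO at 10.98 through Huh7.5.1 CU27 at 10.56 to Hep3B at 9.48, and FOXA2 was lowest in Hep3B, at 8.09. FOXA3 and ONECUT1 were highest in Hep3B, at 8.24 and 7.33, and the Huh7.5.1 groups did not differ past the test for either. Both comparisons share the Huh7.5.1 DMSO arrays, so a high or low reading there enters each of them.

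For each member past the test, the tested genes with the most similar pattern over the 6 arrays were found by the root mean square difference of gene-centred log2 values. CEBPA was nearest to DGCR2, at 0.113, and to GHR, the growth hormone receptor, at 0.119, while its own range over the arrays was 2.5. FOXA1 was nearest to PRICKLE2, at 0.0676, and MFSD6, at 0.0791. PRICKLE2 reached the floor only in Hep3B, at 6.81, and its Huh7.5.1 means of 5.52 and 4.97 lay below it, so its likeness to FOXA1 rests in part on signals under the floor. PROX1 was nearest to PYGL, the liver glycogen phosphorylase, at 0.0878, and USP46, at 0.0886. NR5A2 was nearest to SUMF2 (0.0482) and MRM2 (0.0567), and FOXA2 to CERS5 (0.0601) and ZMYND19 (0.0666). ONECUT1 had the most distant neighbours, TSHZ1 at 0.19 and TPP1 at 0.221.

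Other liver factors moved in both directions with CU27. Of 22 listed factors of liver, bile duct and liver bud, 19 were tested, and 4 fell and 3 rose, where 24.7% of all tested genes passed, 12.1% lower and 12.6% higher. HLF, a PAR-domain factor of the circadian output, fell by 1.38 ± 0.20, the biliary factor SOX9 by 1.36 ± 0.11 and its relative SOX4 by 0.70 ± 0.09, and HNF4G, a paralogue of HNF4A, was the fourth. GATA4, a factor of the liver bud, rose by 0.91 ± 0.15 and CREB3L3, a liver stress factor, by 0.77 ± 0.16. TEF rose by 0.46 ± 0.15, at a limma adjusted p of 0.0499 that was lost in 10 of 15 alternatives, and CREB3L3 did not pass with DMSO replicate 2 left out (adjusted p = 0.0796). CEBPB and CEBPD, which can bind the same sites as C/EBP alpha, had values of -0.24 and 0.22 and did not pass. The factors that rose numbered 1 without DMSO replicate 2.

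Among the coregulators 1 passed with CU27. PPARGC1A, a coactivator of HNF4A in fasting, rose by 0.89 ± 0.26 (limma adjusted p = 0.0352), and it was the 1 of 16 tested coregulators that passed, against 24.7% of all tested genes. Whether coregulators differ in this from the other liver factors was not tested. Its call was lost in 4 of 15 alternatives, among them DMSO replicate 2, CU27 replicate 1 and CU27 replicate 2 left out (adjusted p = 0.237, 0.119 and 0.0983). NR0B2, the inhibitor SHP that NR5A2 induces, had a value of -0.46, and TRIB1 and COP1, which mark C/EBP alpha for degradation, had values of -0.09 and 0.02, none past the test.

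Textbook target genes of the factors more often fell than rose with CU27. Over the lists for HNF4A, FOXA, C/EBP alpha, NR5A2 and ONECUT1, which share genes, 25 of 46 genes were tested, and 9 fell and 1 rose, where 12.1% and 12.6% of all tested genes did so. The lists were chosen with earlier results of these data known, so the counts only describe these genes. The count of 9 became 4, 4 and 15 when DMSO replicate 2, CU27 replicate 2 or CU27 replicate 1 was left out. The median over these targets was -0.33, and -0.26 when means under the floor were set to it. A further 15 measured targets, among them PCK1, G6PC1 and CYP7A1, lay below the floor in every group and were not tested. Markers moved in the same comparison. Of 10 hepatocyte markers 6 fell, among them APOB, TTR and SERPINA1, which are also in the target lists, and AHSG (-1.40), APOH (-0.67) and RBP4 (-0.56), which are not. CD68, a lysosomal protein of macrophages, rose 4.74-fold while PTPRC, CD3E and CSF1R stayed below the floor. CD14, the other leukocyte marker tested, was lower past the test (-0.69), with both Huh7.5.1 means below the floor. The intestinal mucin MUC13 rose by 0.86, while CDX2 (-0.23), CDH17 (-0.13) and VIL1 (0.36) did not pass. The part of the markers in the change of the targets was not tested.

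By list, 8 of 15 tested HNF4A targets fell, 4 of 6 C/EBP alpha targets, 2 of 7 FOXA targets, 1 of 7 NR5A2 targets, and TTR as the 1 ONECUT1 target tested. Of all tested genes, 12.1% fell. Among the targets that fell, HP alone lay outside the HNF4A list, so the other lists otherwise count the same genes again. Among the C/EBP alpha targets, HP, the hemoglobin carrier haptoglobin, reached the floor in DMSO, at 6.36, and not in CU27, so that its fall is at least 1.19-fold, and CPS1 lay below the floor in both Huh7.5.1 groups. APOB, the structural protein of very low density lipoprotein, fell by 1.28 ± 0.15, TTR, the carrier transthyretin, by 0.94 ± 0.15, and SERPINA1, alpha-1 antitrypsin, by 0.66 ± 0.08. APOM, an apolipoprotein of high density lipoprotein, fell by 0.76 ± 0.18, but without DMSO replicate 2 or CU27 replicate 2 its adjusted p was 0.126 and 0.079. IGFBP1, an insulin-repressed FOXA target, was the gene that rose, by 1.04 ± 0.23, but did not pass with DMSO replicate 1 or CU27 replicate 2 left out (adjusted p = 0.0714 and 0.0762). ALB and AFP had values of -0.10 and -0.23 and did not pass. With DMSO replicate 1, DMSO replicate 2 or CU27 replicate 2 left out, 5, 4 and 4 HNF4A targets fell. Leaving out CU27 replicate 1 gave 4 FOXA targets and 4 NR5A2 targets that fell, and the NR5A2 count was 0 without DMSO replicate 2 or CU27 replicate 2. No test compared these lists with other genes.

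**Figure D5:**
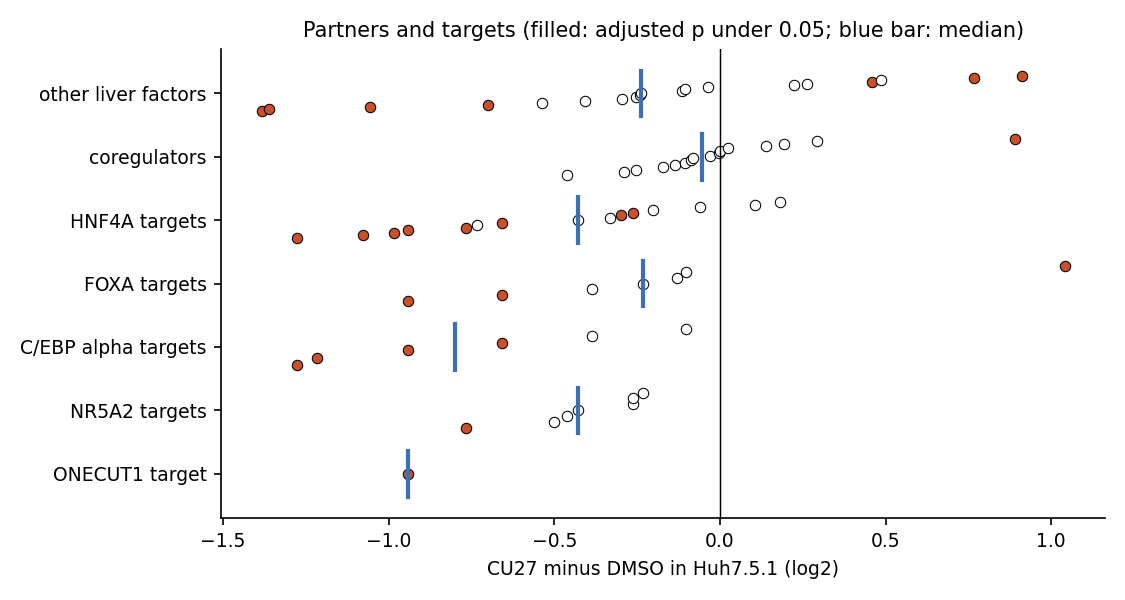
Difference between CU27 and DMSO in Huh7.5.1 in log2 for each tested gene (circles) of 7 lists of partners and targets, with the list median as a blue bar. Filled circles passed limma at adjusted p under 0.05, and in the HNF4A target list 8 of 15 did, all lower. Of all tested genes, 12.1% were lower past the test, and the lists share genes.

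Between the lines, targets of the factors were near the background on the values as deposited. Of the 25 tested targets, 12 were higher and 7 lower in Huh7.5.1, where 41% and 22.9% of all tested genes were. After each array was centred on its median, 7 targets were higher and 13 lower. The shares of all tested genes after centring are not given here, so those counts have no background beside them. Without Hep3B replicate 2, 7 were higher. The HNF4A targets AMBP and MTTP were higher by 1.29 and 1.59, and F7 and TF were lower, at -1.91 and -1.05. AFP and CCND1, targets of NR5A2, were higher by 3.23 and 2.48. CPS1, the urea cycle enzyme, was lower, by at least 3.64-fold since its Huh7.5.1 mean lay below the floor. Among other liver factors, GATA6, CEBPB and CEBPD were higher in Huh7.5.1, by 2.19, 1.67 and 2.46, and HHEX was lower, at -0.88. The corepressor TLE3, a partner of FOXA proteins, was at least 6.14-fold higher, and its relative TLE2 was lower, at -1.34.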

How the data were processed

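The values were the deposited table of 49395 probe sets, taken as log2 signals because of their range, since the labels do not state the scale. Per the submitters' processing notes MAS5 was used, and per the labels' protocols biotin-labelled RNA was hybridised. How the arrays were scaled between each other, any centring and the medium of each line are not given in the sources used here. Column medians were 5.85 and 5.82 for Hep3B, 6.27 and 6.23 for Huh7.5.1 with DMSO, and 6.26 and 6.25 for Huh7.5.1 with CU27. Arrays carry no read depth, and their number limits the precision.

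Control probe sets (102) were not used. In the platform annotation 44988 probe sets had 1 symbol, 1832 several and 2473 none, and 44961 matched the gene table with 0 symbols changed. Each gene was represented by its probe set of highest mean, and it was tested when a group mean reached the floor. The floor was the 50th percentile of all values on the 6 arrays, controls left out. The fit to the 6 arrays used limma 3.58.1 under R 4.3.3 (lmFit, eBayes with intensity trend, with residual df 3 and prior df 5.87). Tests were two-sided, with Benjamini-Hochberg adjustment over all genes tested. With 2 arrays against 2 the smallest exact permutation p is 0.333, so no such test was used. Errors are standard errors. Genes named were all members, up to 3 genes of each list in each direction by smallest adjusted p, and the 2 nearest genes of each member past the test. HNF4G, and the factors, coregulators and targets given as not past the test, and the markers given with values, were named after their values were seen. The members and lists were chosen with earlier results of these data known. On simulated data for the CU27 comparison over 11288 genes, 96% of 2-fold and 100% of 4-fold changes were recovered and 0.126% of unchanged genes were called. The simulated noise was independent for each gene and array. Its rates therefore do not cover effects shared by an array or a replicate, and changes under 2-fold were not simulated. Alternatives covered scaling, the floor, the trend, the probe set rule, the arrays fitted and each array left out.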

Additional observations from a re-analysis of the deposited data

How the results depend on the processing

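CEBPA was lower with CU27 and between lines, FOXA1 lower and PROX1 higher between lines, past the test in all alternatives that measured them. CEBPA had no value without _x_at and _s_at probe sets, where the members past the test with CU27 numbered 1, all lower. With each array left out in turn the CU27 count ran from 1 to 3 for the members (the same for those lower), from 900 to 2923 for all genes, and from 1 to 4 for member probe sets, and in the line comparison the members higher ran from 1 to 2 and member probe sets from 5 to 11. Members higher in Huh7.5.1 numbered 1 with arrays centred on their median and 1 after quantile normalization. Both replicate numbers were shared by the Huh7.5.1 treatments, while the lines in DMSO shared only replicate 2, and the block was not run between lines. The differences between replicates 1 and 2 in DMSO and CU27 correlated at 0.31 over probe sets, which with 2 pairs does not establish pairing. With the replicate number as a block, 3567 genes passed against 2809, and PROX1 passed with CU27 (-0.42, limma adjusted p = 0.0389), by a smaller error at the same difference. Signs that turned were of values not past the test, other than ALB. With CU27 and each array left out in turn, FOXA2 ran from -0.16 (without CU27 replicate 2) to 0.34, and ONECUT1 from -0.62 (without DMSO replicate 2) to 0.76, with -0.24 without CU27 replicate 1. The PROX1 probe sets 11731739_a_at and 11748417_a_at ran from -0.67 to 0.14 and from -0.49 to 0.29, positive without DMSO replicate 1 and, at 0.10 and 0.14, without CU27 replicate 2. The NR5A2 probe set 11727750_a_at ran from -0.36 to 0.12. Between lines, the NR5A2 probe set 11727751_a_at ran from -0.22 to 0.00516 (without Hep3B replicate 2) and was lower past the test, at -0.52, after centring (limma adjusted p = 0.0287), and ALB, 0.23 as deposited, was at -0.19 after centring, -0.0592 after quantile normalization and -0.047 without _x_at and _s_at probe sets. Without the filter 10641 genes passed between lines against 7283. The causes were not tested.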
